A study of Mus musculus with 2 samples.

Results

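The 6 genes described here are Mir199a-1, Mir199a-2, Mir199b, Mir214, Mir140 and Mir22, a set of microRNA (miRNA) genes named for mesenchyme, the loose connective tissue of the embryo. They were chosen by name, through their Ensembl identifiers in the GENCODE mouse annotation, with earlier results of these data known. All 6 of 6 were among the 1973 miRNA genes counted. The tissue was forebrain of B6NCrl mouse embryos at embryonic day 11.5, described as healthy and with male and female embryos mixed. There was 1 group and no treatment, mutant or control: replicate 1 pooled 109 embryos and replicate 2 pooled 88, and the labels list the same donor entry for each. Forebrain tissue was pooled, so a level is an average over every cell type in the dissected tissue, and fewer cells of a type cannot be told apart from less RNA per cell. The comparisons possible are between the genes, and between the replicate libraries.

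A miRNA gene is transcribed into a longer RNA that folds into a hairpin. The hairpin is cut into short mature strands, called the 5p and 3p arms after the side they come from, and a mature arm loaded into an Argonaute protein represses messenger RNAs that pair with its seed, bases 2 to 8 from its 5′ end. In mice, Mir199a-2 and Mir214 are processed from Dnm3os, a long non-coding RNA made from the strand opposite to Dnm3 and known from mesenchyme, limb and skeleton. Mir199a-1 and Mir199b lie opposite to the related dynamin genes Dnm2 and Dnm1. Mir140 is known from cartilage, where it is expressed together with its host gene Wwp2. Mir22 is expressed in many tissues and is known from heart and muscle as well as from mesenchymal cells.

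The mature arms are shown first, because they fix which reads can be assigned to which gene. The 10 arms of these genes in the RefSeq sequence table (build GRCm38.p6) are given 5′ to 3′, in lower case with the seed in capitals. The arms miR-199b-5p and miR-140-5p are named only.
miR-199a-5p (Mir199a-1 and Mir199a-2): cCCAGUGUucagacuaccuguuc
miR-199a-3p (Mir199a-1 and Mir199a-2): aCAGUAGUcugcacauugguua
miR-199b-3p (Mir199b): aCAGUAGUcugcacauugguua
miR-214-5p (Mir214): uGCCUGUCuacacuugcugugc
miR-214-3p (Mir214): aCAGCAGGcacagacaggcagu
miR-140-3p (Mir140): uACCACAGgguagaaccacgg
miR-22-5p (Mir22): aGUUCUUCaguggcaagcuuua
miR-22-3p (Mir22): aAGCUGCCaguugaagaacugu

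The 3p arm of 22 bases had the same letters in all 3 Mir199 genes, and the 5p arm of 23 bases had the same letters in Mir199a-1 and Mir199a-2. A read of exactly such an arm therefore matches 3 or 2 of the annotated miRNA genes. The arms of Mir214, Mir140 and Mir22 in the table were found in no other miRNA gene of the annotation. Outside the set, the seed of miR-214-3p occurred in Mir761 and the seed of miR-140-3p in Mir497b. Mir761 had no count in either library, a result that leaves room for a level of up to 2.34 and 2.31 CPM at the depth of replicates 1 and 2. Mir497b had 2 counts in replicate 1 and 6 in replicate 2, a mean of 3.09 ± 2.17 CPM. CPM is the count of a gene divided by the summed miRNA gene counts of that library and multiplied by 1000000, and ± gives the SD over n = 2 libraries throughout.

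The hairpins of the Mir199 genes show how far the likeness reaches. Capitals mark stretches of 20 bases or more that also stand in another miRNA gene of the annotation.
Mir199a-1 (chr9:21496495-21496564, minus strand): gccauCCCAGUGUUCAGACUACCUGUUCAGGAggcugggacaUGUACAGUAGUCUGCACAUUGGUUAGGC
Mir199a-2 (chr1:162217814-162217923, plus strand): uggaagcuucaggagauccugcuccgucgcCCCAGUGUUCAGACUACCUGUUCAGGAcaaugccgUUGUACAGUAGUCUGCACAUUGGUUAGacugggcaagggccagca
Mir199b (chr2:32318460-32318569, plus strand): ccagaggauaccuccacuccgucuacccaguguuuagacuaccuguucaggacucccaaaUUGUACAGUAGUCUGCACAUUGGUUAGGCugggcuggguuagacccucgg

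Mir199a-1 shared 55 of its 70 bases in this way, Mir199a-2 54 of 110 and Mir199b 29 of 110. The other genes holding these stretches were the Mir199 genes themselves. The longest identical stretch was 27 bases between Mir199a-1 and Mir199a-2, 28 between Mir199a-1 and Mir199b, and 27 between Mir199a-2 and Mir199b. Mir199b differed along the 5p side: against miR-199a-5p, lined up with bases 26 to 48 of its hairpin, it had the single substitution C10U, counted from 1 at the 5′ end of miR-199a-5p. That side of Mir199b therefore holds no shared stretch of 20 bases. For miR-199a-5p, 1 further base at the 5′ end or 5 further bases at the 3′ end told Mir199a-1 and Mir199a-2 apart. For the 3p arm, 4 further bases at the 5′ end were needed for Mir199a-1, and 5 for Mir199a-2 and Mir199b. At the 3′ end, 2 further bases made the arm single for Mir199a-2 and 4 did so for Mir199b, while the Mir199a-1 hairpin ends before its 3p arm becomes single. The hairpins of Mir214, Mir140 and Mir22 shared no stretch of this length, while 50.3% of the 1894 miRNA genes with both a count row and a sequence shared at least 1 with another gene.

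**Figure D1:**
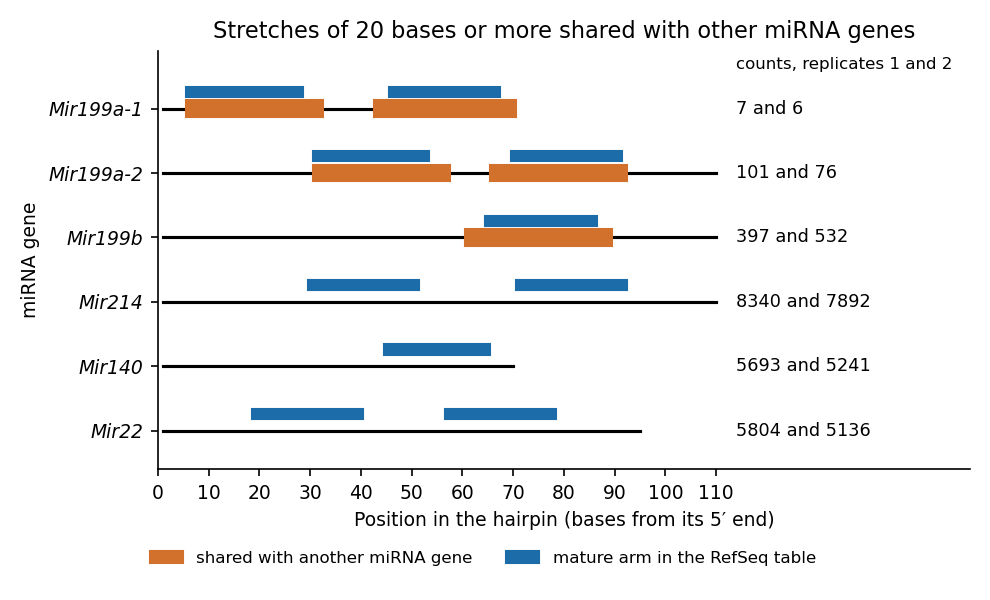
Hairpins of the 6 genes drawn to scale from the 5′ end (x axis, bases), with mature arms of the RefSeq table in blue and stretches of 20 bases or more shared with another miRNA gene in orange, and the sense counts of replicates 1 and 2 printed at the right. Orange covers both arms of Mir199a-1 and Mir199a-2 and the 3p arm of Mir199b, and is absent from Mir214, Mir140 and Mir22.

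The other 3 hairpins are printed without capitals, since no such stretch occurs in them.
Mir214 (chr1:162223368-162223477, plus strand): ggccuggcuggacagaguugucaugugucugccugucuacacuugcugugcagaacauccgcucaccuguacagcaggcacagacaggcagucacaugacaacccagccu
Mir140 (chr8:107551244-107551313, plus strand): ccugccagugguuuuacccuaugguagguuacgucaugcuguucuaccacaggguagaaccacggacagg
Mir22 (chr11:75463716-75463810, plus strand): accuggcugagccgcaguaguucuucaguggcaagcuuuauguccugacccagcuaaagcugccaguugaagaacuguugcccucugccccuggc

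The genomic positions follow the mm10 build, read from GENCODE M21 on the same assembly. Mir199a-2 (ENSMUSG00000070126) and Mir214 (ENSMUSG00000065516) stand 5444 bases apart in exonic sequence of Dnm3os, on the strand opposite to Dnm3 and within introns of that gene. Mir199b (ENSMUSG00000092807) and Mir199a-1 (ENSMUSG00000065547) lie opposite to introns of Dnm1 and Dnm2, and all 10 annotated transcripts that span each of them have no exon there. Mir140 (ENSMUSG00000065439) lies on the strand of Wwp2, a ubiquitin ligase gene, in an intron of 3 coding transcripts and in the exon of 1 retained-intron transcript. Mir22 (ENSMUSG00000065529) is exonic in both transcripts of its host Mir22hg that span it, and in 1 non-coding transcript of Tlcd2. No further miRNA gene with a count row lay within 10000 bases of a member, apart from Gm23363, 116 bases before Mir199b, which had 2 counts in replicate 1 and 1 in replicate 2.

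Sense-strand reads of miRNA genes numbered 1281201 in replicate 1 and 1297647 in replicate 2. Of the mapped reads, 40.4% ± 1.82 had several places in the genome and stand outside the gene counts. Of 13 miRNA genes with a row that are known from neurons and their progenitors, 12 were detected (2 CPM or more in both libraries). Together the 13 took 5.81% ± 0.306 of the counts. Mean levels ran from 17079 CPM for Mir92b to 1.56 CPM for Mir124a-1, which was not detected. Counts in this and the following lists leave out reads with several places in the genome. A low count of a gene therefore does not show that its mature miRNA was scarce. How many such reads each list lost was not tested, so the shares of the lists may not be counted alike. The neural list was written with earlier results of these data known, so it is no independent check of the tissue label. Markers of other cell types were present as well. Mir126a of endothelium took 3.25% ± 0.302, 7 of 7 epithelial genes 0.803% ± 0.0382, 4 leukocyte genes 0.0796% ± 0.00109, 3 erythroid genes 0.0489% ± 0.0166 and 4 of 8 striated muscle genes 0.0193% ± 0.0084. The striated muscle list was led by Mir208b at 191 and 96.3 CPM, while Mir133b, Mir133a-1, Mir133a-2 and Mir1a-1 were at 0. A count of 0 leaves room for up to 2.34 and 2.31 CPM in replicates 1 and 2. It also leaves out reads with several places in the genome, so absence of these miRNAs was not shown. The share of the 6 genes was 1.59% of replicate 1 (1.57 to 1.61%, 95% Wilson interval), while in replicate 2 it was 1.46% (1.43 to 1.48%). Intervals here and below cover counting error alone, with each read taken as an independent molecule. Reads copied by PCR are not independent, so the intervals may be too narrow.

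Mir214 was the most abundant of the set. Replicate 1 gave it 8340 counts or 6509.5 CPM and replicate 2 7892 counts or 6082 CPM, a mean of 6296 ± 302 CPM. This placed it at rank 45 of 1973 miRNA genes in each library. Mir22 followed with 5804 counts or 4530.1 CPM and 5136 counts or 3958 CPM, a mean of 4244 ± 405 CPM. Mir140 had 5693 counts or 4443 CPM and 5241 counts or 4039 CPM, a mean of 4241 ± 286 CPM. Mir22 stood at ranks 52 and 57, and Mir140 at ranks 53 and 56. These 3 genes made up nearly the whole of the set's counts, with 1.48% ± 0.0993 of all counts against 0.0434% ± 0.00559 for the 3 Mir199 genes together. The Mir199 counts leave out reads of exactly a shared arm, whereas the listed arms of Mir214, Mir140 and Mir22 stand in no other annotated miRNA gene. How much of the contrast this makes up was not tested.

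Among the Mir199 genes, Mir199b led. It had 397 counts or 309.9 CPM in replicate 1, but 532 counts or 409.97 CPM in replicate 2, a mean of 359.9 ± 70.8 CPM at ranks 166 and 152. Mir199a-2 had 101 counts or 78.8 CPM and 76 counts or 58.6 CPM, a mean of 68.7 ± 14.3 CPM at ranks 243 and 248. Mir199a-1 had few counts, with 7 counts or 5.46 CPM (95% exact interval 2.197 to 11.3 CPM) and 6 counts or 4.62 CPM (1.697 to 10.1 CPM). Mir199b thus held 78.6% of the Mir199 counts in replicate 1 (74.8 to 82.1%) and 86.6% in replicate 2 (83.7 to 89.2%), by the exact Clopper-Pearson method. The order Mir199b, Mir199a-2, Mir199a-1 was the same in both libraries. The copies could not be counted alike: both arms of Mir199a-1 and Mir199a-2 stand in another Mir199 gene, while the 5p side of Mir199b does not. The part of this in the shares and the order was not tested.

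**Figure D2:**
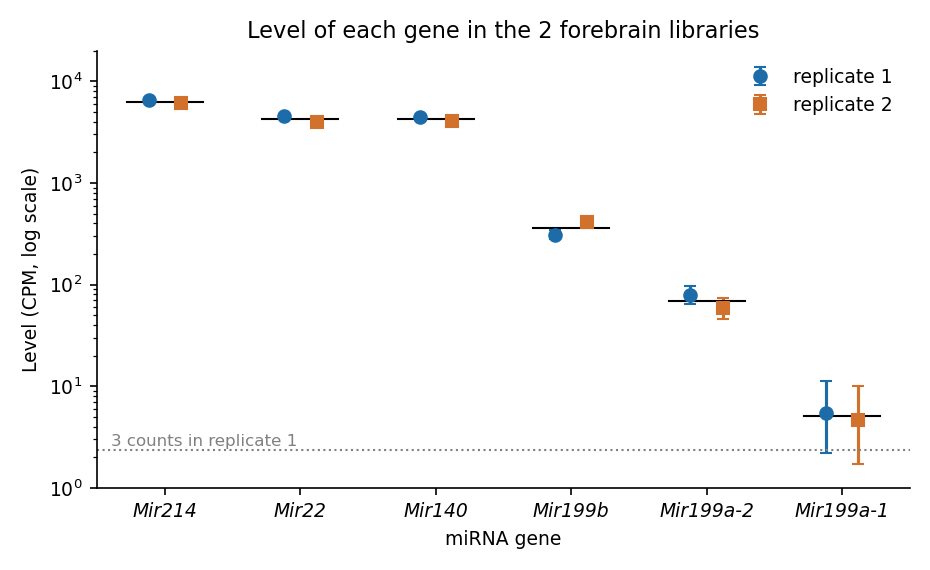
Level of each gene (y axis, CPM on a log scale) in replicate 1 (circles) and replicate 2 (squares), with 95% exact counting intervals and a black bar for the mean. Mir214, Mir22 and Mir140 lie between 3958 and 6509.5 CPM, Mir199b and Mir199a-2 well below, and the lower ends of both intervals of Mir199a-1 fall under the dotted line at 3 counts in replicate 1.

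All 6 genes reached 2 CPM in both libraries, as did 21.5% of the 1973 miRNA genes, of which 1288 had no count in either library. The median detected miRNA gene had 143 CPM, and Mir214, Mir22, Mir140 and Mir199b were above it while Mir199a-2 and Mir199a-1 were below. The median over the 6 genes was 2301 CPM, against 8.91 CPM over the 685 miRNA genes with any count. These levels describe the genes and were not tested, since the genes are not samples of a common population. The 6 genes were chosen with earlier results of these data known, so the choice itself may have set these contrasts.

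**Figure D3:**
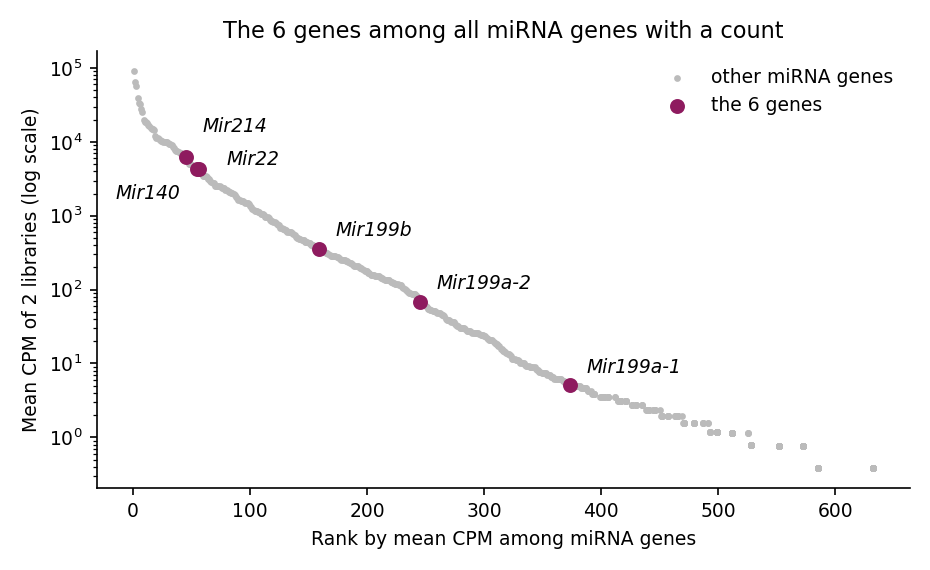
Mean level of each miRNA gene with a count (y axis, CPM on a log scale) against its rank (x axis), with the 6 genes in dark red and the others in grey. Mir214, Mir22 and Mir140 sit at ranks 45 to 56, and Mir199b, Mir199a-2 and Mir199a-1 at ranks 159, 245 and 373 by mean.

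Neighbours in the order of levels were compared within each library, where scaling cancels out. They were called separate where both libraries of 1 gene lay above both of the other. With 2 libraries this rule is a description and no test. Mir214 exceeded Mir22 by 1.44-fold in replicate 1 (95% exact interval 1.39 to 1.49) and 1.54-fold in replicate 2 (1.48 to 1.59), with no overlap of their CPM values. Mir22 and Mir140 did not separate: Mir22 was 1.02 times Mir140 in replicate 1 (0.983 to 1.06) and 0.98 times in replicate 2 (0.943 to 1.02). Both intervals include equal levels, and the order changed from one library to the other. Mir140 exceeded Mir199b by 14.3-fold (12.95 to 15.9) and 9.85-fold (9.01 to 10.8). In this and the following ratios, the Mir199 counts leave out reads of exactly a shared arm, and the part of this was not tested. Mir199b exceeded Mir199a-2 by 3.93-fold (3.15 to 4.94) and 7.00-fold (5.496 to 9.02), and these intervals for the libraries do not meet. Mir199a-2 exceeded Mir199a-1 by 14.4-fold (6.75 to 36.8) and 12.7-fold (5.56 to 35.6), a wide range set by the 7 and 6 counts of Mir199a-1. With 2 libraries, an exact permutation test cannot reach 0.05, so no p-value is given for these ratios.

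The 2 hairpins carried by Dnm3os differed widely in counts. Mir214 had 82.6 times the counts of Mir199a-2 in replicate 1 (95% exact interval 67.9 to 101) and 104 times in replicate 2 (82.9 to 132), or 6.53 ± 0.23 on the log2 scale. Together they held 6364 ± 317 CPM. Reads of exactly miR-199a-5p or miR-199a-3p, printed above, match more than 1 gene, whereas the arms of Mir214 match 1. The count of Mir199a-2 leaves out such reads, in a number these files do not give, and so do those of Mir199a-1 and of the 3p arm of Mir199b. How much of the difference in counts this makes up was not tested. The counts do not separate the 5p from the 3p arm of any gene.

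The members were read from their own strand. Mir214 had 2 counts on the opposite strand in replicate 1, which left 99.98% of its counts there on the sense strand (95% exact lower bound 99.9%), and 0 in replicate 2. The other 5 genes had no count on the opposite strand in either library, although Dnm1, Dnm2 and Dnm3 are transcribed from the strand opposite to Mir199b, Mir199a-1, Mir199a-2 and Mir214. For Mir199a-1 this sets a lower bound of just 59.0% and 54.1% sense reads, because of its few counts.

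Between the replicate libraries, Mir214, Mir140 and Mir22 were slightly higher in replicate 1 and Mir199b was lower. The exact binomial test (two-sided, against the library totals, Benjamini-Hochberg adjustment over the 398 miRNA genes with 10 counts or more) compares these libraries, not conditions, and does not include the spread between libraries. On the log2 scale, Mir22 was higher in replicate 1 by 0.19 (0.14 to 0.25 at 95%), with an adjusted p of 1.79e-11 by this exact test. Mir140 had 0.14 (0.083 to 0.19, adjusted p = 4.52e-06 in the exact test) and Mir214 0.10 (0.053 to 0.14, adjusted p = 9.48e-05 in the exact test). Mir199b had -0.40 (-0.60 to -0.21, adjusted p = 0.000135 in the exact test). Mir199a-2, at 0.43 (-0.015 to 0.88, adjusted p = 0.142 in the exact test), and Mir199a-1, at 0.22 (-1.56 to 2.09, adjusted p = 0.927 in the exact test), did not pass. The interval of Mir199b overlaps those of Mir214, Mir140, Mir22 and Mir199a-2 nowhere, but a difference between genes in this ratio was not tested.

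In this test 3 of the 6 genes were called higher in replicate 1, against 20.6% of all genes tested, and 1 was called lower, against 7.79%. None of the 6 was called at 2-fold or more, against 2.76% of all genes tested that passed both the adjusted p and this fold, so the 4 calls are small shifts. With TMM scaling in edgeR, 2 members remained called, Mir22 higher and Mir199b lower, and with DESeq2 size factors 3 did, with Mir214 lost. The split of calls over all genes moved with the scaling as well, from 82 higher and 31 lower to 52 higher and 54 lower with TMM. The edgeR exact test allows for spread between libraries, which was set by hand. It called 0 members at a coefficient of variation of 0.1 and 0 at 0.2, with 0 at an unadjusted p under 0.05 in each. The spread that edgeR estimated over the 398 genes was 10.3%, from these same 2 libraries taken as 1 group. At a setting near this spread, ratios as small as those of the members can hardly be called. The 0 calls therefore do not show equal levels in the libraries.

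Calls of this kind follow the depth of a gene. Of the 57 miRNA genes with 10000 counts or more in total, the depth of Mir214, Mir140 and Mir22, 75.4% were called in either direction, and their median absolute log2 ratio was 0.10. Mir140 and Mir22 lie near the lower end of this band. In the next band down, 1000 to below 10000 counts, 41.2% of 97 genes were called. Of the 114 genes with 100 to below 1000 counts, the depth of Mir199b and Mir199a-2, 21.9% were called, 22 higher and 3 lower in replicate 1. Mir199b is among these 3. The median absolute log2 ratio at that depth was 0.24, and the lowest value was -0.72. At 10 to below 100 counts, the depth of Mir199a-1, 3.85% were called and the median absolute log2 ratio was 0.34.

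**Figure D4:**
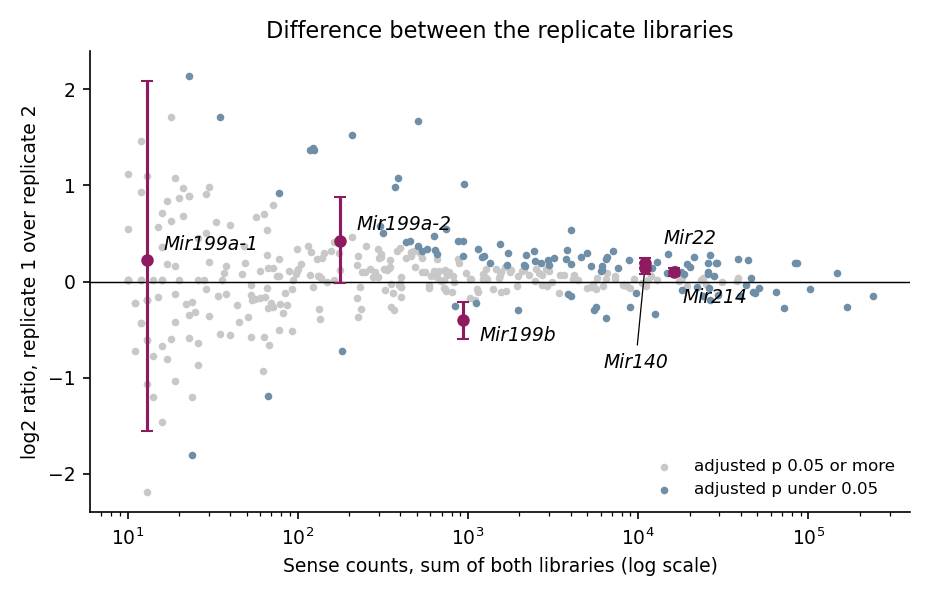
Log2 ratio of replicate 1 to replicate 2 (y axis) against the summed sense counts of a gene (x axis, log scale) for the 398 miRNA genes tested, in blue where the exact test gave an adjusted p under 0.05. The 6 genes are in dark red with 95% exact intervals; Mir214, Mir140 and Mir22 lie at 0.10 to 0.19, and Mir199b at -0.40.

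Other miRNAs known from mesenchyme, cartilage or smooth muscle gave a frame for these values. Of 9 such genes, 7 were detected, and together they took 1.76% ± 0.0491 of the counts. Mir21a, raised in many stromal and injured tissues, stood at 8419 and 8751 CPM in replicates 1 and 2, above Mir214 in both. Mir143, known from smooth muscle, had 7975 and 7047 CPM, also above Mir214 in both, whereas its neighbour Mir145a had 141 and 94.8 CPM. Mir455, known like Mir140 from cartilage, had 966 and 963 CPM, below Mir140 and above Mir199b. Of the 7 genes of this list that were tested, 2 were called higher in replicate 1 and 1 was called lower. The shares over all genes tested were 20.6% higher and 7.79% lower. The median log2 ratio of the 7 genes was 0.17. The median was also 0.17 over the 6 genes described here, and 0.065 over all genes tested. It was 0.95 over 4 striated muscle genes, 0.23 over 11 neural genes, 0.19 for 1 endothelial gene, 0.086 over 7 epithelial, -0.048 over 4 leukocyte and -0.056 over 3 erythroid genes. Medians as high or higher were thus seen in lists of other cell types.

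Mir143 and Mir126a, which mark vessel walls and vessel lining, had log2 ratios of 0.18 (0.14 to 0.22) and 0.19 (0.17 to 0.21) between the libraries, next to 0.19 for Mir22, 0.14 for Mir140 and 0.10 for Mir214. Mir126a had 34601 and 30323 CPM, above each of the 6 genes. Mir145a had 0.57 (0.24 to 0.92). Some markers of other cell types differed between the libraries by as much or more. These ratios were 0.23 for the neural genes Mir92b and Mir149, 0.99 for Mir208b of striated muscle and 1.01 for the erythroid Mir451a. Others of the same lists went the other way, with -0.14 and -0.025 for the neural Mir181d and Mir181c, and -0.056 and -0.50 for the erythroid Mir144 and Mir486a. Only Mir181d among these was called. Mir21a, at -0.056 (-0.094 to -0.018), was also lower in replicate 1. Which cells of the dissected forebrain held any of these miRNAs was not tested.

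With 2 libraries of 1 group, likeness to another gene can be judged by level alone, here as the distance of log2(CPM + 1) over both libraries. Mir125a (distance 0.044) and Mir379 (0.15) were nearest to Mir214. Mir30d and Mir381 were nearest to both Mir22 (0.15 and 0.17) and Mir140 (0.11 and 0.14). Mir302c (0.23) and Mir155 (0.28) were nearest to Mir199b, with 296 and 352 CPM for Mir302c and 376 and 425 CPM for Mir155 in replicates 1 and 2. Mir702 (0.091) and Mir1198 (0.18) were nearest to Mir199a-2, and Mir653 and Mir6977 had the same 7 and 6 counts as Mir199a-1.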

How the data were processed

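MicroRNA-seq counts of 2 forebrain libraries were used. Raw counts per miRNA gene were deposited by the authors in 3 columns (both strands, sense, opposite), made on mm10 with annotation M4, per the text files deposited with them. Of the software, nothing is stated for alignment or counting (not given in the sources used here). Reads with several places in the genome stand in a row of their own and, with the unmapped, no-feature and ambiguous rows, were kept out of totals and tests. Sense counts were scaled to CPM over all 1973 gene rows. Of these, 1894 identifiers were found in GENCODE M21, which gave symbols, positions and sequences for the search of shared stretches among 2202 miRNA genes; mature arms came from RefSeq. No genome sequence was searched.

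The members and lists were chosen with earlier results of these data known. The text names the members, miRNA genes within 10000 bases, seed sharers, the 2 genes nearest in level to each member, and up to 4 genes of each marker list. Mir133a-1, Mir133a-2, Mir133b, Mir1a-1 and Mir124a-1 were named after their values were seen, as was Mir145a beside Mir143. Mir486a and Mir146a were read under their older names, and Mir486b, Mir142a, Mir9-1 and Mir1a-2 were not used. Ratios had 0.5 counts added. The labels do not say whether the pools were separate litters, so the spread between the libraries may be technical. The p-values of the exact binomial test cover counting error alone and hold no spread between libraries, technical or biological. The exact binomial test was checked on counts simulated with counting error alone, so that check does not cover spread between libraries. Alternatives were TMM, DESeq2 scaling, edgeR's exact test, unstranded counts, filters, pseudocounts and other totals. Tools were Python 3.11.15, scipy 1.17.1, pandas 2.3.3, R 4.3.3, edgeR 4.0.16 and DESeq2 1.42.0.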

Additional observations from a re-analysis of the deposited data

How the results depend on the processing

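Levels moved by less than 1 SD with unstranded counts, TMM or DESeq2 size factors. A single library says nothing of stability here, since with 2 libraries each lies at the same distance from their mean. As CPM of mapped reads they were 3033 for Mir214, 2041 for Mir22, 2042 for Mir140, 175 for Mir199b, 32.9 for Mir199a-2 and 2.42 for Mir199a-1, and over totals without the 10 most abundant genes 10686, 7199, 7197, 613, 116 and 8.55 CPM. These totals are larger or smaller by construction. In the ratio of replicate 1 to replicate 2, each member kept its direction under every alternative run. Mir214 lost its call at 0.026 with TMM, 0.048 with DESeq2 size factors and 0.046 without the 10 most abundant genes, and Mir140 at 0.066 with TMM. In edgeR's exact test Mir214 (0.098), Mir140 (0.14), Mir22 (0.19) and Mir199b (-0.40) lost their calls at coefficients of variation of 0.1 and 0.2, with an adjusted p of 1; elsewhere the adjusted p ran from 5.68e-06 to 0.000135 for Mir199b and from 1.79e-11 to 5.62e-05 for Mir22. Members called fell from 4 to 2 with TMM and to 0 in edgeR's exact test at either setting. Of 113 genes called, that test called 8 at 0.1 and 0 at 0.2 (21 and 13 at an unadjusted p under 0.05), and of 11 called at 2-fold or more, 7 and 0. Ratios between members stayed within 1 SD with unstranded counts. In single libraries, that of Mir22 to Mir140 ran from -0.029 to 0.028 and that of Mir199b to Mir199a-2 from 1.97 to 2.81 on the log2 scale. The ratio between libraries has no value without either replicate. No paired analysis was possible because the series has a single group. At this depth 3 counts are 2.34 and 2.31 CPM. Mir199a-1, at 7 and 6 counts, is near this level and shares 55 of its 70 bases with other Mir199 genes; which of these limits its count was not tested.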
